A study of Rattus norvegicus with 6 samples.

Results

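The 40 genes of DNA replication and mitosis described here, from the injured rat spinal cord, were chosen by name, and 40 of 40 symbols were found once each among the 33455 genes of the deposited count table. The 6 libraries came from wild type Rattus norvegicus (Norway rat) whose spinal cord had been contused at T9, 3 treated with a gel and ultrasound (Gel+US) and 3 with a piezoelectric gel and ultrasound (Piezo Gel+US). Both groups carried the injury and the ultrasound, which ran at 100 Hz and 1.0 W/cm2 for 10 min a day over 4 weeks, and about 5 mm3 of the lesion core was sampled. Neither an uninjured cord nor an injured cord without ultrasound is part of these groups, and the labels give no age, sex or strain. A piezoelectric material turns mechanical strain into electrical charge, and the comparison asks which transcripts differed when the gel was piezoelectric.

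Before a cell divides it copies its DNA once and then separates the copies. Replication starts where Cdc6 and Cdt1 load the ring-shaped Mcm2 to Mcm7 helicase onto DNA, cyclin E starts the firing of these origins, and Pcna clamps the polymerases to the template while ribonucleotide reductase and thymidylate synthase supply the building blocks. Mitosis is then driven by Cdk1 with cyclins A and B, by the Aurora and Polo kinases, and ends when the anaphase-promoting complex with Cdc20 marks cyclin B and other proteins for destruction. E2F factors drive replication genes, and mitotic genes are switched on later through paired CCAAT boxes and the CHR element, which the MuvB complex binds with B-Myb and Foxm1. In a contused cord, dividing cells are known to include macrophages, microglia, fibroblasts, glial precursors, astrocytes, ependymal cells and lymphocytes, while neurons do not divide.

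The promoters of 4 members are shown because they differ in which of 3 cell cycle motifs they hold, and because these 4 genes spread very differently over the libraries. The window runs from 250 bases before to 50 after the annotated start in RefSeq's GRCr8 assembly, and capitals mark matches on either strand to TTTGAA (the CHR core), CCAAT, or an E2F site spelled TTTCCCGC, TTTCGCGC, TTTGGCGC or TTTGCCGC.
Top2a (chr10:84473044-84473343, minus strand): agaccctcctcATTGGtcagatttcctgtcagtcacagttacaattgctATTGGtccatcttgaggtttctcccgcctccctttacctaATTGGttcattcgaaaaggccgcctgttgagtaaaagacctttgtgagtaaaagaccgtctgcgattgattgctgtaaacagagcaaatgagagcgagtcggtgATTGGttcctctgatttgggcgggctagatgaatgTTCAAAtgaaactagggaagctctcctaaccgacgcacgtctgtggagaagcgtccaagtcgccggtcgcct
Cdk1 (chr20:19265043-19265342, plus strand): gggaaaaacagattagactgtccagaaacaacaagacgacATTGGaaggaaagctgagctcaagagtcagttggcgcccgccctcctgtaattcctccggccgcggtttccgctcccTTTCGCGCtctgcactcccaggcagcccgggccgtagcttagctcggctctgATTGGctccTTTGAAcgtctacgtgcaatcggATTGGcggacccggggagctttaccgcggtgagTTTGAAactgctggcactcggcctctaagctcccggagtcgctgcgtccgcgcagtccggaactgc
Mcm6 (chr13:42404303-42404602, minus strand): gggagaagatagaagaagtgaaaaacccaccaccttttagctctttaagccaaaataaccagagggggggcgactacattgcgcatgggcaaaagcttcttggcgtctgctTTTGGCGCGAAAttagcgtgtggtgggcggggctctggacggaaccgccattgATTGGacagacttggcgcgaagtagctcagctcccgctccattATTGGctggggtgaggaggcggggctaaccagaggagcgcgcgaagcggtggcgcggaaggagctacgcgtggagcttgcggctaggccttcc
Pcna (chr3:139955771-139956070, minus strand): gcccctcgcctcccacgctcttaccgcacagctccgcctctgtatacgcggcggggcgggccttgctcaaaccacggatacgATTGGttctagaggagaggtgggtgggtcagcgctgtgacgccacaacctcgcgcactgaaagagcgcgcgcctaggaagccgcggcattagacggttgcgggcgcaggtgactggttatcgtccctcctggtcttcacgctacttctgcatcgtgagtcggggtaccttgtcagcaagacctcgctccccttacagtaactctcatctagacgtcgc
Of the 40 members 31 had a promoter in the RefSeq table; Aurkb, Ccna2, Ccne2, Cdc6, Foxm1, Mcm4, Rrm2, Tpx2 and Ube2c had none there.

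TTTGAA was in 15 of the 31 promoters (48.4%) against 18.3% of all 33469 promoters of 300 bases, CCAAT in 24 (77.4%) against 37.5%, and an E2F spelling in 8 (25.8%) against 2.14%. Among the 21851 promoters of protein-coding genes the shares were 17.1%, 38.0% and 2.74%. Both TTTGAA and CCAAT stood in 13 of the 31 (41.9%), against 7.41% of all promoters. The roles differed in these letters. An E2F spelling was in 6 of 7 promoters of licensing and helicase genes in 0 of 7 of the kinase, checkpoint and anaphase-promoting genes and in 0 of 8 of the kinetochore and spindle genes. TTTGAA was in 1 of 7, 5 of 7 and 5 of 8 of the same promoters. In the sequences printed, Top2a holds 4 CCAAT boxes and 1 TTTGAA, Cdk1 holds all 3 kinds of motif, Mcm6 holds 2 E2F spellings that overlap on opposite strands, and Pcna holds 1 CCAAT box. Matches of different motifs overlapped in Mki67 and Mcm7, and a match to these letters is not evidence of binding.

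Library totals ran from 17212653 to 21436820 counts, of which the 40 members held 4764 to 8221. Cord markers were present throughout: summed levels ran from 2112 to 17377 CPM for 12 neuronal, 26857 to 52151 CPM for 8 oligodendrocyte and 2051 to 4273 CPM for 7 astrocyte genes (CPM, a gene's counts after all libraries are brought to 1 size, here with TMM factors). Libraries numbered 2 stood apart in both groups, with 10916 and 10999 CPM of fibrotic scar genes against 2375 to 4065 in the other 4, and Piezo Gel+US replicate 2 held 70439 CPM of Schwann cell genes against 4372 to 12838 elsewhere. In such bulk tissue, fewer cells of a type and less RNA per cell cannot be told apart.

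The 40 genes together made up 457 CPM in Gel+US replicate 2 and 246 to 320 CPM in the other 5 libraries. Gel+US replicate 2 was the highest library for 32 of the 39 members tested, where it was highest for 19% of all 17066 genes tested. Piezo Gel+US replicate 3 was the lowest for 16 of the 39, against 10.5% of all genes. In that library 12 of the 40 members lay under 1 CPM, compared with 1 in Gel+US replicate 2. The mean of the members' centred log2 CPM in the order of replicates 1 to 3 was -0.029, 0.89 and -0.33 in Gel+US and -0.040, 0.18 and -0.67 in Piezo Gel+US, so the highest library was a Gel+US one, the lowest a Piezo Gel+US one, and the other 4 were interleaved.

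**Figure D1:**
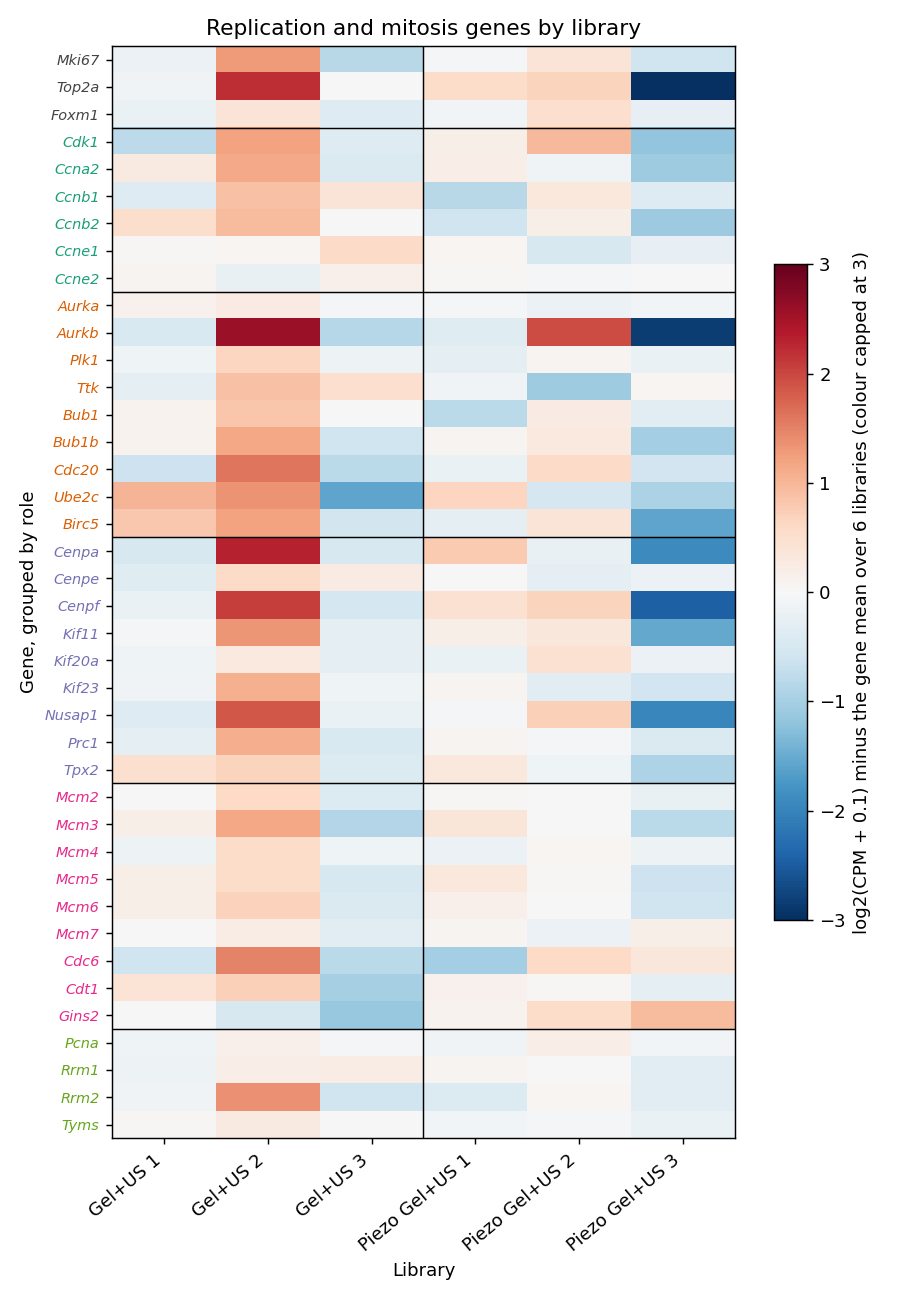
Each row is 1 of the 40 genes, grouped by role with the symbol coloured by role, and each column 1 library; colour gives log2(CPM + 0.1) minus the gene's mean over the 6 libraries, capped at 3. The column of Gel+US replicate 2 is red for most mitotic genes, and that of Piezo Gel+US replicate 3 is deep blue for Top2a, Aurkb, Cenpf and Nusap1.

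The members varied over the libraries to very different degrees. The highest library exceeded the lowest by less than 2-fold for 11 members, by 2-fold to under 5-fold for 16 and by 5-fold or more for 13. By role, the median coefficient of variation (CV, SD over mean of the 6 libraries) was 58.3% for kinases, checkpoint and anaphase-promoting genes, 50.1% for kinetochore and spindle genes, 48.0% for cyclins and Cdk1, 32.8% for licensing and helicase genes and 12.7% for fork and nucleotide genes. The 15 members with TTTGAA in the promoter had a median CV of 60.4% and the 16 without it one of 28.9%, a description over genes that share the same libraries.

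**Figure D2:**
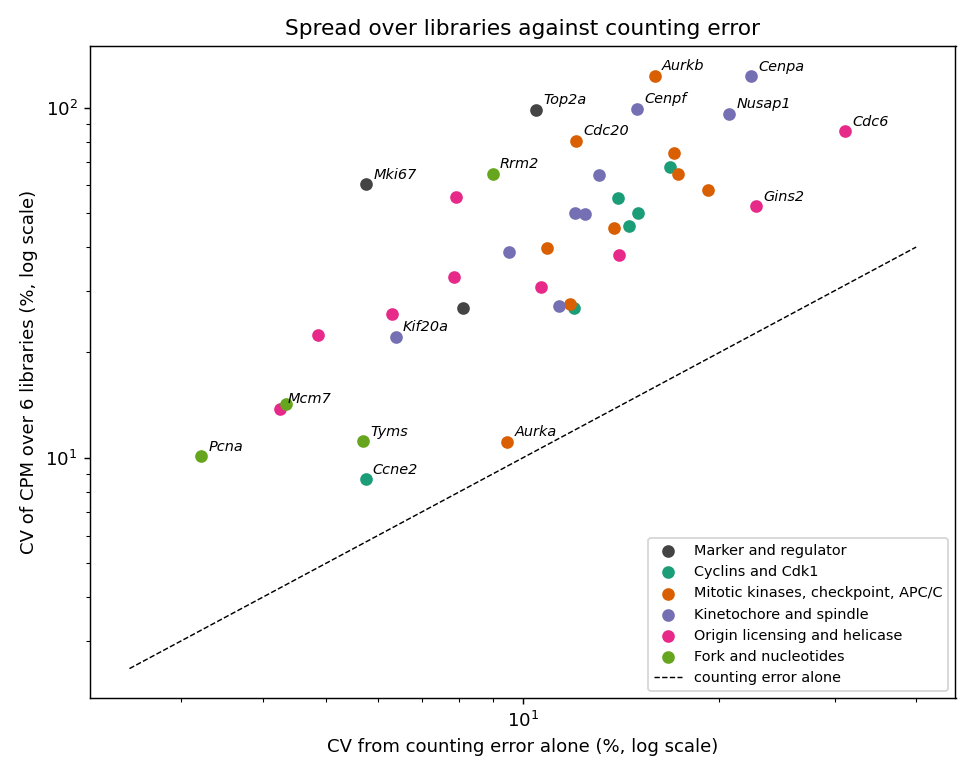
Each point is 1 member, coloured by role; the x axis is the CV that counting error alone would give and the y axis the CV of CPM over the 6 libraries, both in percent on log scales, with the dashed line where the values are equal. Aurka lies close to the line (11.1% against 9.46%), while Mki67 (60.4% against 5.75%) and Top2a (98.7% against 10.5%) lie far above it.

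Mki67, the Ki-67 protein that coats mitotic chromosomes and is the usual marker of dividing cells, measured 12.5, 34.1 and 7.87 CPM in Gel+US and 13.6, 18.3 and 9.26 CPM in Piezo Gel+US, each in the order of replicates 1 to 3, an order kept for the other genes. In each group replicate 2 was highest and replicate 3 lowest, and the groups overlapped (18.1 ± 14.0 and 13.7 ± 4.50 CPM, SD, n = 3; a log2 fold change of -0.41, 95% interval -1.75 to 0.94). Top2a, the topoisomerase that untangles sister DNA and whose promoter is printed above, measured 2.76, 14.1 and 2.96 CPM in Gel+US and 4.38, 4.73 and 0.207 CPM in Piezo Gel+US. The last value rests on 4 counts, against 253 in Gel+US replicate 2, a ratio of lowest and highest library of 67.9 (95% counting interval 26.2 to 251). Its log2 fold change was -1.08 (95% interval -3.65 to 1.48), the lowest of all members, and 0.11 without Gel+US replicate 2, while that of Mki67 was 0.42 without it. Foxm1, the transcription factor of mitotic genes, had a narrow range of 5.91 to 10.2 CPM in Gel+US and 6.52 to 11.1 CPM in Piezo Gel+US (a log2 fold change of 0.13, 95% interval -0.66 to 0.91).

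**Figure D3:**
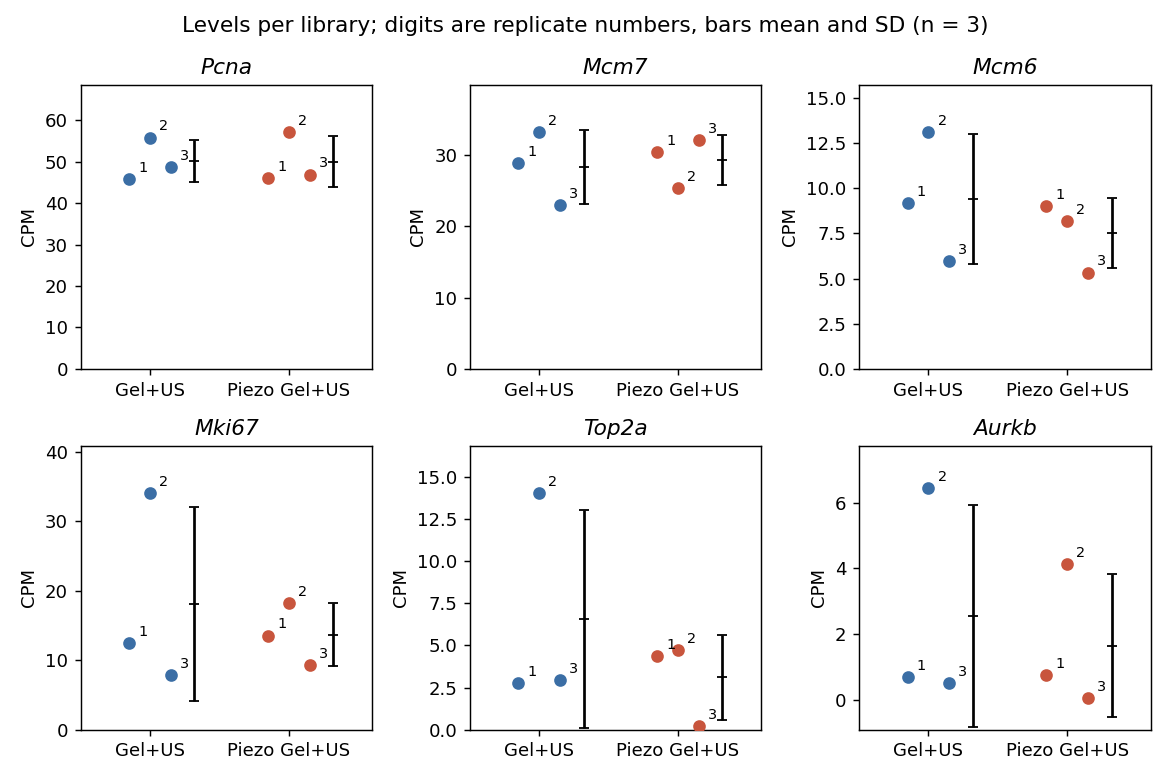
CPM of 6 members in each library; points are libraries labelled with their replicate number, and the black bars to the right give mean and SD (n = 3 per group). Pcna and Mcm7 vary little over the libraries, whereas Mki67, Top2a and Aurkb have a single Gel+US library far above the other 2.

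Among the cyclins and their kinase, all 6 had a log2 fold change below 0 (median -0.55). Ccnb2, a B-type cyclin, had the lowest unadjusted p of this role. It measured 3.06, 4.11 and 2.10 CPM in Gel+US and 1.33, 2.36 and 0.931 CPM in Piezo Gel+US. It was lower in Piezo Gel+US in all 3 pairs of equal replicate number, although Piezo Gel+US replicate 2 lay above Gel+US replicate 3 (a log2 fold change of -0.997, 95% interval -2.14 to 0.15). The other B-type cyclin, Ccnb1, measured 1.70 to 4.28 CPM in Gel+US and 1.23 to 2.87 CPM in Piezo Gel+US. Cdk1, the mitotic kinase, measured 0.852, 3.67 and 1.15 CPM in Gel+US and 1.76, 3.12 and 0.621 CPM in Piezo Gel+US, again highest in replicate 2 of each group. The log2 fold change of Cdk1 was -0.039 (95% interval -1.89 to 1.81), and 0.86 without Gel+US replicate 2. The E-type cyclins, which act at the start of replication, did not share this pattern over libraries. Ccne2 stayed within 13.4 to 17.4 CPM and was lowest in Gel+US replicate 2 (a log2 fold change of -0.020, 95% interval -0.47 to 0.43), and Ccne1 was highest in Gel+US replicate 3 at 5.31 CPM and lowest in Piezo Gel+US replicate 2 at 2.46 CPM.

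All 9 members among the mitotic kinases, the spindle checkpoint and the anaphase-promoting complex were highest in Gel+US replicate 2, and all 9 had a log2 fold change below 0 (median -0.61). Aurkb, the Aurora kinase of the chromosomal passenger complex, had the widest range of the 40 members, with 0.701, 6.44 and 0.501 CPM in Gel+US and 0.747, 4.12 and 0.0517 CPM in Piezo Gel+US. Replicate 2 of each group was the only library above 1 CPM. The lowest value is a single count, so the ratio of highest to lowest, 125, has a counting interval of 21.9 to 4961. Birc5 (survivin), which sits in the same complex, measured 2.61, 3.44 and 0.952 CPM in Gel+US and 1.17, 1.91 and 0.414 CPM in Piezo Gel+US. Aurka, the Aurora kinase of the spindle poles, had the highest level per length of this role, 2.48 CPM per kb, and hardly varied. Its values were 6.31, 6.83 and 5.51 CPM in Gel+US and 5.66, 5.08 and 5.43 CPM in Piezo Gel+US, so the groups overlapped only through the first Piezo Gel+US library (a log2 fold change of -0.21, 95% interval -0.78 to 0.37). Ttk, the kinase that starts the spindle checkpoint, had the lowest unadjusted p of the role, with 2.05, 4.72 and 3.61 CPM in Gel+US and 2.35, 1.16 and 2.64 CPM in Piezo Gel+US. Unlike Aurkb, it was lowest in Piezo Gel+US replicate 2 (a log2 fold change of -0.76, 95% interval -1.89 to 0.38). Bub1, Bub1b and Plk1 were each lower in Piezo Gel+US in all 3 pairs of equal number. Cdc20, the activator of the anaphase-promoting complex, reached 9.22 CPM in Gel+US replicate 2 and lay between 1.65 and 4.48 CPM elsewhere, and Ube2c, its ubiquitin-conjugating enzyme, ran from 0.401 to 3.72 CPM.

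Kinetochore and spindle genes were mostly highest in Gel+US replicate 2 as well, for 7 of the 8 tested. Of 9 members 8 passed the filter on low counts, 7 with a log2 fold change below 0 (median -0.58). Cenpa, the centromeric histone, did not pass it, with 9, 66 and 9 counts in Gel+US and 23, 11 and 2 counts in Piezo Gel+US. Cenpf, a large kinetochore protein, measured 6.89 CPM in Gel+US replicate 2 and 0.207 CPM in Piezo Gel+US replicate 3, and Nusap1, a spindle microtubule protein, 3.50 and 0.155 CPM in the same libraries. These lowest values are 4 and 3 counts, and the ratios of 33.3 and 22.5 have counting intervals of 12.7 to 124 and 7.37 to 112. Kif23, the motor of the midzone that cells need to split, had the lowest unadjusted p of this role and measured 2.91, 6.72 and 2.86 CPM in Gel+US and 3.31, 2.46 and 2.07 CPM in Piezo Gel+US. Only Gel+US replicate 2 stood apart, and the log2 fold change of -0.67 (95% interval -1.75 to 0.41) was -0.15 without it. Kif20a, a related motor, did not share this pattern. It had 4.29 CPM per kb, the highest level per length of the role, and measured 11.5, 15.4 and 10.4 CPM in Gel+US and 10.9, 17.15 and 11.1 CPM in Piezo Gel+US (a log2 fold change of 0.071, 95% interval -0.59 to 0.73).

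Origin licensing and helicase genes varied less, and 7 of 9 had a log2 fold change below 0 (median -0.21). The 6 helicase subunits lay between 1.49 (Mcm5) and 9.36 (Mcm7) CPM per kb, although their proteins form 1 ring. Mcm6, whose promoter holds the E2F spellings printed above, measured 9.17, 13.1 and 5.96 CPM in Gel+US and 9.02, 8.20 and 5.33 CPM in Piezo Gel+US. It was lower in Piezo Gel+US in each pair of equal number, by little in the first (a log2 fold change of -0.32, 95% interval -1.19 to 0.54). Mcm7 lay between 22.9 and 33.2 CPM, with its second highest value in Piezo Gel+US replicate 3, where Top2a was lowest (a log2 fold change of 0.049, 95% interval -0.44 to 0.54). Mcm3 ran from 4.06 CPM in Gel+US replicate 3 to 16.8 CPM in Gel+US replicate 2. The loading factor Cdc6 rested on 62 counts in all and Cdt1 on 305. Gins2, a subunit of the active helicase, was the exception in direction. It measured 0.902, 0.611 and 0.351 CPM in Gel+US and 0.961, 1.36 and 1.81 CPM in Piezo Gel+US, on 7 to 35 counts per library, and partly overlaps a gene on the opposite strand. All 3 Piezo Gel+US libraries lay above all 3 Gel+US libraries (a log2 fold change of 1.14, 95% interval -0.085 to 2.37, edgeR adjusted p = 0.994).

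Pcna, the polymerase clamp, was the most abundant member at 38.9 CPM per kb and differed least. It measured 45.8, 55.8 and 48.8 CPM in Gel+US and 46.1, 57.1 and 46.9 CPM in Piezo Gel+US, giving 50.1 ± 5.13 and 50.02 ± 6.14 CPM (SD, n = 3; a log2 fold change of -0.0033, 95% interval -0.40 to 0.40). Rrm1 and Rrm2 encode the large and small subunits of ribonucleotide reductase and varied unequally. Rrm1 stayed within 21.7 to 31.9 CPM, while Rrm2 measured 5.36, 15 and 3.81 CPM in Gel+US and 4.32, 6.04 and 4.60 CPM in Piezo Gel+US. The log2 fold change of Rrm2 was -0.69 (95% interval -1.97 to 0.59), and 0.11 without Gel+US replicate 2. Tyms, thymidylate synthase, measured 16.4, 19.3 and 16.2 CPM in Gel+US and 14.99, 15.5 and 14.0 CPM in Piezo Gel+US. The groups of Tyms did not overlap, and the size was small (a log2 fold change of -0.22, 95% interval -0.65 to 0.21).

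Between the groups, 35 of the 39 members tested had a log2 fold change below 0, with a median of -0.42, where 52.9% of all genes tested did, with a median of -0.021. No member passed the edgeR quasi-likelihood test (0 of 39; 0% of the 17066 genes tested), and 0 of 39 had an unadjusted p below 0.05, where 2.1% of all genes did. DESeq2 likewise called 0 of 40 members, with 0 at that level. Over all genes 359 of 17066 reached it by edgeR and, without the filter on low counts, 652 of 23240 by DESeq2. The groups did not overlap for 2 of the 39 members, Gins2 and Tyms, against 6.81% of all genes. The count depended on Gel+US replicate 2: without it, 17 of 40 members were below 0, with a median of 0.072, where 49% of all genes were. With both libraries numbered 2 left out, 26 of 38 were below 0, with a median of -0.098. The median was -0.72 with the third Gel+US library left out and -0.24 with the third Piezo Gel+US library left out. Marker lists of other cells leaned to different degrees, with 0 called in each. Below 0 were 14 of 14 T and NK cell genes tested (median -0.73), 12 of 12 neuronal (-0.57) and 7 of 7 ependymal genes (-1.32). So were 6 of 7 astrocyte (-0.29), 12 of 16 macrophage and microglia (-0.22) and 5 of 7 glial precursor genes (-0.048). Neutrophil and erythroid genes (-1.13) and B and plasma cell genes (-0.020) each had 7 of 11 below 0, and scar genes 10 of 16 (-0.20). Oligodendrocyte and endothelial genes each had 4 of 8 (0.0088 and 0.10). All 7 of 7 Schwann cell genes were above 0 (1.90). The part of these lists in the members' difference was not tested.

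**Figure D4:**
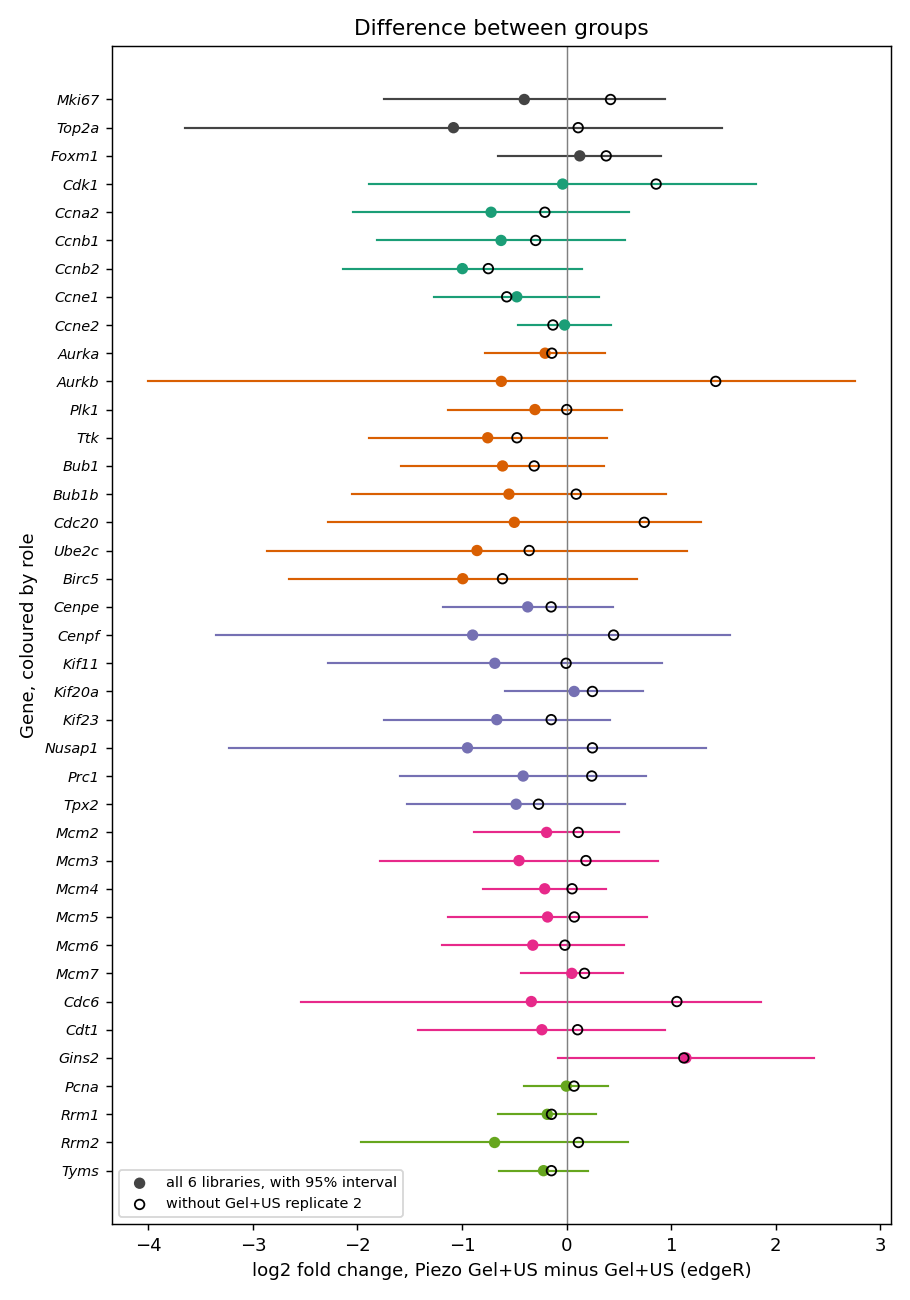
Log2 fold change, Piezo Gel+US minus Gel+US, of the 39 members tested, coloured by role; filled points and lines are the edgeR value and 95% interval with 6 libraries, and open circles the value without Gel+US replicate 2. All 39 intervals include 0, and most open circles lie to the right of the filled points.

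The labels repeat the replicate numbers 1 to 3 in both groups, and the members' difference varied with the number. In the pair numbered 1, 18 of 40 members were lower in Piezo Gel+US, with a median log2 ratio of 0.013; in the pair numbered 2, 35 of 40 were lower, with a median of -0.74; and in the pair numbered 3, 27 of 40, with a median of -0.19. Altogether 12 members were lower in all 3 pairs and 2, Foxm1 and Gins2, in none. With the replicate number as a block 0 of 39 members were called (0% of all genes), and 2 of 39, Ccnb2 and Birc5, had an unadjusted p below 0.05, where 5.78% of all genes did.

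Another gene overlaps 10 of the 40 members in the coordinates of the deposited table, a share that was not computed over all genes. All 4 members above 0 are among these 10. So are Ccne2, Mcm3, Ccne1, Prc1, Cdt1 and Nusap1, which were below 0. Gins2 shares 2670 bases with Gse1 on the opposite strand, which held 5279 counts over the 6 libraries against 116 of Gins2. Gse1 had a log2 fold change of -0.23. Kif20a and Mcm7 share 1686 and 125 bases with genes on the opposite strand, whose log2 fold changes were -0.0056 and 0.22. These genes held 165 and 2555 counts, against 1474 of Kif20a and 3324 of Mcm7. Foxm1, with 919 counts, shares 749 bases with an uncharacterised gene on its own strand, which had 2252 counts and a log2 fold change of 0.014. On the opposite strand it shares 75 bases with Rhno1 (893 counts, log2 fold change 0.15) and 9052 with a gene of 6 counts. Ccne2, with 1819 counts, shares 401 bases with Ints8 on the opposite strand (5290 counts, log2 fold change -0.0043). The libraries kept strand, but no source used here says whether counting used it, and the part of these overlaps in the values was not tested. Of the 29 tested members without an overlap, 29 were below 0, which restates that all 4 members above 0 have an overlap. These signs depend on 1 library, since 17 of 40 members were below 0 without Gel+US replicate 2.

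Other cell cycle genes, listed by name, were set beside the members. Of 36 other mitotic genes tested 30 had a log2 fold change below 0 (median -0.31), 22 were highest in Gel+US replicate 2 and 20 lowest in Piezo Gel+US replicate 3, and 0 were called. Ncapg, a condensin subunit, measured 9.22, 8.83 and 10.2 CPM in Gel+US and 6.03, 6.24 and 6.10 CPM in Piezo Gel+US. Its groups did not overlap and it did not peak in Gel+US replicate 2 (a log2 fold change of -0.62, 95% interval -1.12 to -0.11, unadjusted p = 0.0232 and adjusted p = 0.994 by edgeR). Kif15, a spindle motor, and Hmmr, a spindle assembly protein, had log2 fold changes of -0.72 and -0.92. Of 30 other replication genes tested 18 were below 0 (median -0.11) and 0 were called; Mcm10, Slbp and Prim1 had the lowest p, with log2 fold changes of -1.25, -0.48 and 0.28.

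In a list of G1 regulators and cell cycle inhibitors, which also holds Mybl2 (B-Myb), 9 of 23 genes tested were below 0 (median 0.038) and 0 were called. Ccnd2, a D-type cyclin, measured 32.8, 36.4 and 30.6 CPM in Gel+US and 29.6, 17.4 and 17.4 CPM in Piezo Gel+US (a log2 fold change of -0.63, 95% interval -1.25 to -0.020, adjusted p = 0.994 by edgeR). Cdkn1b, the p27 inhibitor of cyclin-dependent kinases, measured 101, 158 and 102 CPM in Gel+US and 143, 364 and 174 CPM in Piezo Gel+US. It was higher in Piezo Gel+US in all 3 pairs of equal number, and the value in Piezo Gel+US replicate 2, the library rich in Schwann cell genes, stood apart (a log2 fold change of 0.92, 95% interval -0.033 to 1.87, and 0.39 without that library). Cdkn1a, the p21 inhibitor, measured 34.7 CPM in Piezo Gel+US replicate 3 and 6.74 to 12.3 CPM in the other 5 libraries. Its log2 fold change was 0.76, and -0.25 without that library. Piezo Gel+US replicate 3 was the lowest library for 16 of the 39 members tested, Top2a and Cdk1 among them. It was the highest for Gins2 (1.81 CPM) and the second highest for Mcm7 (32.1 CPM), and a link with Cdkn1a was not tested. Ccnd1, Myc and Mybl2, which encodes B-Myb, had log2 fold changes of 0.33, 0.26 and -1.17.

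The immune and scar lists were compared with the members over the same libraries. Fibrotic scar scores (mean centred log2 CPM of 16 genes) fell into separate levels, 1.22 and 1.08 in the libraries numbered 2 and -0.92 to -0.30 in the other 4, so no correlation over the 6 libraries is given. Mki67 was highest in these same libraries, at 34.1 and 18.3 CPM. Mcm6 was not, since Piezo Gel+US replicate 2 measured 8.20 CPM, below both libraries numbered 1.

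Lymphoid and blood cell genes ordered the libraries otherwise. T and NK cell genes (15 found, none at 0 counts in any library) summed to 99.7, 332 and 39.8 CPM in Gel+US and 142, 43.4 and 76.6 CPM in Piezo Gel+US. B and plasma cell genes (12 found, none at 0) summed to 38.8, 82.9 and 16.5 CPM in Gel+US and 77.1, 27.4 and 33.5 CPM in Piezo Gel+US. Neutrophil and erythroid genes (12 of 18 found; Camp and Ltf were at 0 in some libraries) summed to 361, 750 and 16.4 CPM in Gel+US and 313, 153 and 226 CPM in Piezo Gel+US. The mean centred log2 CPM of this list, used for the relations below, ordered Piezo Gel+US replicates 2 and 3 the other way (0.0089 and -1.10). Klf1, 1 gene of the list and a transcription factor of red cell precursors, measured 9.67, 31.0 and 1.25 CPM in Gel+US. In Piezo Gel+US it measured 11.0, 6.49 and 0.776 CPM. Klf1 was picked after its values were seen and does not stand for the list. Of the 11 genes tested in this list, 4 were lowest in Piezo Gel+US replicate 3. Gel+US replicate 2, the library with most of the members at their highest, was thus also highest in all 3 lists, and Gel+US replicate 3 was lowest.

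**Figure D5:**
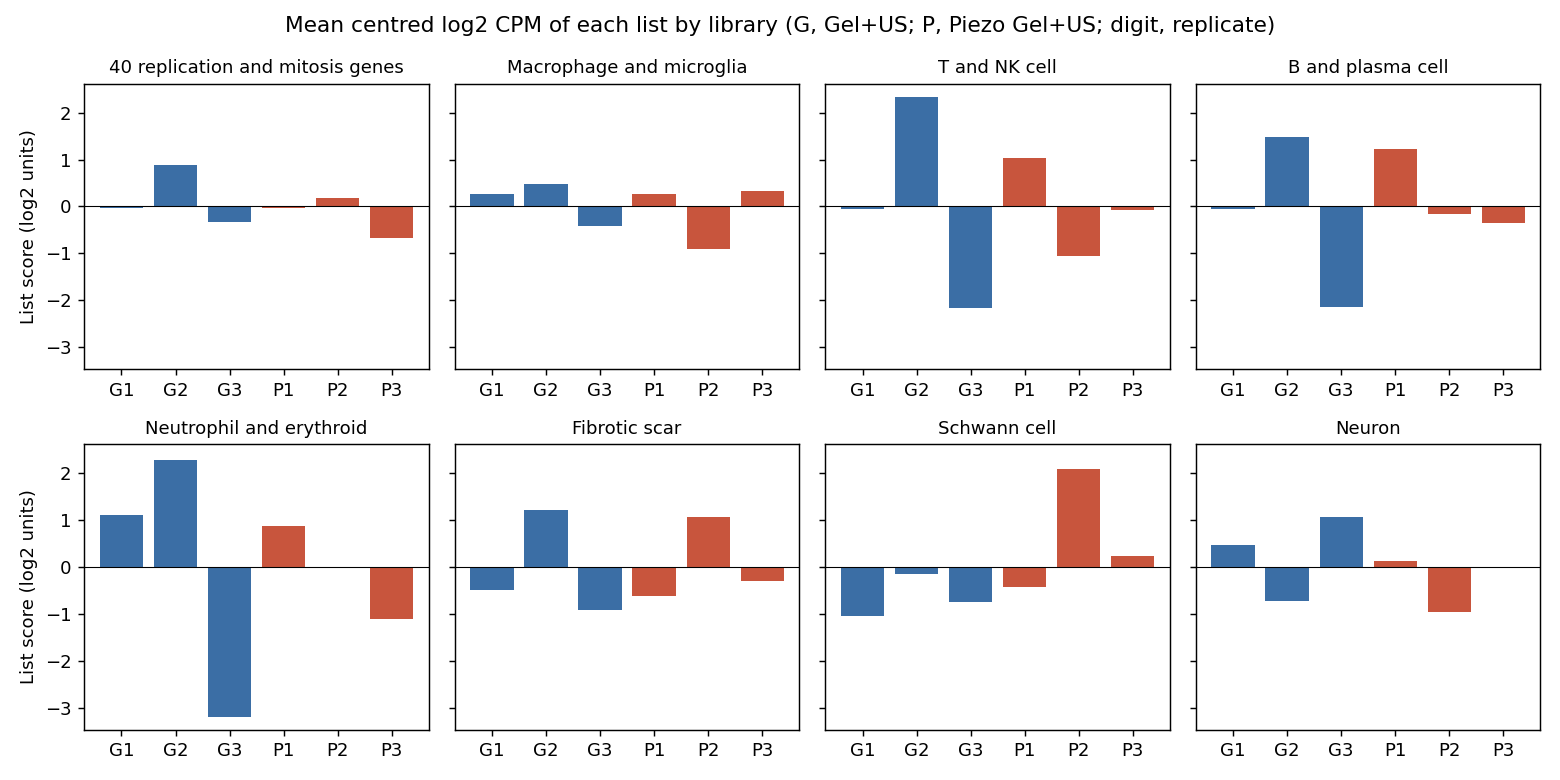
Bars give the mean centred log2 CPM of each list in each library (G, Gel+US; P, Piezo Gel+US; the digit is the replicate), for the 40 members and 7 lists of cell content. Gel+US replicate 2 has the highest bar for the members and for the macrophage, T and NK, B and plasma, neutrophil and erythroid and scar lists, and the macrophage list spans -0.91 to 0.48 against -0.67 to 0.89 for the members.

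Of 12 relations computed between Mki67 or Mcm6 and 6 content lists, none passed after Benjamini-Hochberg adjustment. The 12 include the 2 relations with the scar score, which are not given for the reason above. Mcm6 was not picked by the rule for naming genes, and the lists were chosen with earlier results of these data known. The adjustment over 12 relations does not cover these choices. Mcm6 and the neutrophil and erythroid score had Pearson's r = 0.883 (n = 6, exact two-sided permutation p = 0.0222, adjusted p = 0.133) and Spearman's rho = 0.943 (exact permutation p = 0.0167, adjusted p = 0.176), and r = 0.955 without the 2 libraries farthest from the median score. For Mki67 and this list r was 0.822 (exact permutation p = 0.0528, adjusted p = 0.135) and rho 0.771 (exact permutation p = 0.103, adjusted p = 0.176), and r = 0.435 without them. For Mcm6, leaving out these libraries took r from 0.748 to 0.177 with T and NK genes and from 0.779 to 0.548 with B and plasma cell genes (exact permutation p = 0.0792 and 0.0569, adjusted p = 0.135 for both; rho = 0.771 and 0.886, p = 0.103 and 0.0333, adjusted p = 0.176 for both). The relation of Mki67 with T and NK genes rested on the same 2 libraries, Gel+US replicates 2 and 3: r = 0.738 (exact permutation p = 0.0903, adjusted p = 0.135; rho = 0.657, p = 0.175, adjusted p = 0.263) became -0.40 without them. That of Mki67 with B and plasma cell genes also did (r = 0.768, exact permutation p = 0.0764, adjusted p = 0.135; rho = 0.829, p = 0.0583, adjusted p = 0.176; r = 0.194 without them).

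Macrophage and microglia genes mark cells known to be numerous in a contused cord, and the share of these cells was not measured here. Mki67 had r = 0.177 with this score (exact permutation p = 0.733, adjusted p = 0.733; rho = 0.200, p = 0.714, adjusted p = 0.779), and r = 0.834 without Gel+US replicate 3 and Piezo Gel+US replicate 2. The summed level was 1785, 1775 and 1328 CPM in Gel+US and 1898, 974 and 1782 CPM in Piezo Gel+US, lowest in Piezo Gel+US replicate 2, where Mki67 was second highest. Mki67 and the neuron score had r = -0.797 (exact permutation p = 0.0528, adjusted p = 0.135; rho = -0.771, p = 0.103, adjusted p = 0.176), and -0.819 without the libraries just named. For Mcm6 r was 0.310 with the macrophage score (exact permutation p = 0.539, adjusted p = 0.588; rho = 0.371, p = 0.497, adjusted p = 0.597) and -0.505 with the neuron score (exact permutation p = 0.319, adjusted p = 0.383; rho = -0.143, p = 0.803, adjusted p = 0.803). Without the same libraries r was 0.517 and -0.482. With the macrophage or the scar score as a covariate beside group, the members' median log2 fold change was -0.31 or -0.30, with 36 and 34 of 39 below 0. Which cells carried the replication and mitosis transcripts was not tested.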

How the data were processed

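RNA was measured in 6 libraries, assigned to groups by their titles and to columns by library name. The authors deposited unnormalised read counts for each gene, together with gene lengths. The submitters' processing notes name DESeq2 1.20.0, featureCounts 1.5.0-p3, HISAT2 2.0.5 and fastp 0.19.7 but no roles. The build, annotation and strand setting are not given in the sources used here; 0 of the 40 member identifiers and all 40 symbols occur in RefSeq's GRCr8 gene table, and the sequence names of the table are, from general knowledge, those of the black rat (Rattus rattus), so genes that differ between the species may be undercounted in both groups. Promoters were matched by symbol and may differ from the reference used for counting.

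The groups' counts were tested in edgeR 4.0.16 (R 4.3.3) with TMM factors (filterByExpr with minimum count 10 and total 15, robust quasi-likelihood F test, group only, Benjamini-Hochberg over 17066 genes, threshold 0.05); the model was tested on simulated data. DESeq2 1.42.0 was an alternative. List scores are means of centred log2 CPM (prior count 2). Library totals of 17212653 to 21436820 leave counting error that differs by gene, from a CV of 3.22% for Pcna to 31.1% for Cdc6. Between them lay 9.46% for Aurka, 15.0% for Ccnb2 and 22.8% for Gins2. Ratio intervals are exact 95% binomial intervals and cover counting error only. The highest and lowest libraries were picked from the same counts, so these intervals lean away from 1 and do not hold their 95% level. Relations used all 720 pairings of 6 libraries, which treats the libraries as exchangeable and takes no account of group or replicate number. The labels call the libraries biological replicates. The members and lists were chosen with earlier results of these data known.

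Members named with values are 5 fixed genes and, per role, those of highest level per length, lowest p and highest fold change, plus the 2 highest and 2 lowest fold changes; from the 3 other cell cycle lists, the 3 of lowest p each, with Cdkn1a, Ccnd1 and Myc; others named were chosen after their values were seen. Deviations from group means correlated between equal replicate numbers at 0.253, 0.296 and 0.251 (at most 0.198 between different numbers). By the rule used this marks the numbers as pairs, but with 3 libraries per group such correlations cannot settle it. The labels do not say what a number shares. The main fit, with group only, takes no account of the numbers.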

Additional observations from a re-analysis of the deposited data

How the results depend on the processing

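The number of genes called was 0 under each alternative run: RLE size factors, DESeq2, no low-count filter, the replicate block, 3 content scores as covariates (macrophage and microglia, scar, and neutrophil and erythroid), both libraries numbered 2 left out, and each library left out in turn. The neutrophil and erythroid covariate and leaving out both libraries numbered 2 were chosen after seeing the data. The members below 0 numbered 26 of 38 with both libraries numbered 2 left out (median -0.098) and 31 of 39 with the neutrophil and erythroid score (median -0.26); with the replicate block there were 35 of 39 (median -0.29), and the block changed no call. With 1 library left out they ran from 17 to 38 of 40, the median from -0.72 to 0.072, and the lowest count and the reversed median came without Gel+US replicate 2. Of 26 named genes 11 changed sign in at least 1 alternative, none of them called, and the cause was not tested. With 1 library left out the log2 fold changes ran from -0.78 to 0.42 for Mki67, -1.53 to 0.11 for Top2a, -0.15 to 0.38 for Foxm1, -0.67 to 0.86 for Cdk1, -0.12 to 0.070 for Pcna, -0.13 to 0.051 for Ccne2, -0.18 to 0.25 for Kif20a, -0.092 to 0.17 for Mcm7, -1.04 to 0.11 for Rrm2, -0.25 to 1.14 for Cdkn1a and -0.15 to 1.12 for Myc. With both libraries numbered 2 left out Mki67 and Cdk1 were at 0.17 and 0.24, with the neutrophil and erythroid covariate Cdk1 and Pcna at 0.068 and 0.00025, with the scar covariate Ccne2 at 0.0027 and with the macrophage covariate Kif20a at -0.0081. The 12 relations with content lists stayed on the same side of the threshold with RLE factors, a prior count of 0.5 or the median over list members. Depth limits the members under 1 CPM, where 1 library can hold a single count.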
